A study of Mus musculus with 12 samples.

Results

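The genes described here are 40 genes of the Myc and ribosome biogenesis programme of mouse CD8+ T cells, chosen by a list of symbols. That list was drawn up with earlier results of these data known. The members comprise the transcription factors Myc and Mycn and 38 genes of ribosomal RNA synthesis, processing and ribosomal subunit assembly. All 40 were found among the 13948 gene symbols counted after co-culture and among the 35556 counted after restimulation, and so among the 13625 symbols that the tables share. All 40 passed the filter on low counts in every comparison.

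CD8+ T cells came from the spleens of OT-I mice, whose transgenic T cell receptor recognises an ovalbumin peptide, and were expanded with antibodies to CD3e and CD28 and with IL-2. ATRA cells had 5 ng/mL all-trans retinoic acid, a vitamin A metabolite that acts through nuclear retinoic acid receptors, during that expansion, whereas CTRL cells had the same volume of DMSO. The co-culture itself had no additives. After 5 further days of culture, both kinds of cells spent 72 h with GL261 mouse glioma cells that expressed chicken ovalbumin, at 1% O2, a setting the submitters describe as exhaustion in vitro. The 4 groups were ATRA cells and CTRL cells sorted directly after this co-culture, and ATRA cells and CTRL cells sorted after 24 h of renewed stimulation with anti-CD3e. Each group held 3 libraries of total RNA from live CD45.2+ sorted cells. Nothing in the labels ties the libraries of a group to different animals or cultures. The p-values therefore rest on the spread from library to library, which may be technical.

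Ribosome production begins in the nucleolus, where RNA polymerase I transcribes the ribosomal RNA precursor. Small nucleolar RNA-protein particles (snoRNPs) modify this precursor while large protein assemblies cleave, fold and package it into the small and large ribosomal subunits. Myc, which binds DNA at E-box sites together with Max, is known as an activator of genes at each of these steps and is induced in T cells by antigen receptor signals.

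The co-culture libraries held 23558244 to 26111497 counts and the restimulation libraries 16286775 to 20114121. In the co-culture set, a pair of libraries stood apart from their group. ATRA replicate 3 correlated with the other ATRA libraries at Pearson's r = 0.969 and 0.956 over genes, where these correlated with each other at 0.994. CTRL replicate 1 correlated with the other CTRL libraries at 0.984 and 0.986, where these correlated with each other at 0.997. Results after co-culture are therefore also given without this pair of libraries, a choice made after seeing the data. It leaves CTRL replicates 2 and 3 and ATRA replicates 1 and 2. Leaving out the libraries furthest from their group narrows the spread that the p-values rest on. Counts and p-values from such fits are therefore descriptive only. Each of the 7 CD8 T cell markers was detected in every library. Their sums after co-culture were 1828 to 2059 CPM in ATRA cells and 1497.3 to 2009 CPM in CTRL cells. After restimulation they were 1402.6 to 1434 CPM in ATRA cells and 1270.5 to 1506 CPM in CTRL cells. Single markers differed in opposite directions there. Lck averaged 154 CPM in ATRA cells and 311 CPM in CTRL cells, whereas Cd2 averaged 270 CPM in ATRA cells and 141 CPM in CTRL cells. The GL261 marker list summed to 80.6 to 90.5 CPM in ATRA cells and 124 to 162 CPM in CTRL cells after co-culture, with 7 of its 10 genes in the table. After restimulation, it summed to 80.9 to 88.5 CPM in ATRA cells and 90.4 to 101 CPM in CTRL cells, with 10 of 10 in the table and Gfap and Olig1 at 0. Of these sums, Axl averaged 46.5 CPM in ATRA cells and 106 CPM in CTRL cells after co-culture. After restimulation Axl averaged 78.0 CPM in ATRA cells and 72.7 CPM in CTRL cells. The listed genes differed in direction after co-culture. Igfbp7 averaged 0.504 CPM in ATRA cells and 29.7 CPM in CTRL cells, and Nes was also lower in ATRA cells. Loxl2 averaged 31.97 CPM in ATRA cells and 3.63 CPM in CTRL cells. Fn1, Col1a1 and Cspg4 were also higher in ATRA cells. Dendritic cell markers summed to 4.12 to 7.55 CPM in ATRA cells and 10.7 to 15.3 CPM in CTRL cells after co-culture, with 3 of 5 in the table. After restimulation they summed to 70.3 to 71.5 CPM in ATRA cells and 19.3 to 53.6 CPM in CTRL cells, nearly all from Itgax, with Siglech at 0. CD4 T cell markers summed to 74.4 to 77.6 CPM in ATRA cells and 40.7 to 46.5 CPM in CTRL cells after co-culture, and to 23.7 to 26.5 CPM in ATRA cells and 19.2 to 24.996 CPM in CTRL cells after restimulation. Zbtb7b made up nearly all of these sums, and Cd4 itself averaged at most 1.0003 CPM in any group. Monocyte and macrophage markers, mostly Cd68, summed to 19.9 to 24.2 CPM in ATRA cells and 12.3 to 13.4 CPM in CTRL cells after co-culture, and to 23.1 to 24.1 CPM in ATRA cells and 11.6 to 17.0 CPM in CTRL cells after restimulation, with Csf1r at 0 there. NK cell markers, mostly Klre1 in CTRL cells, summed to 0.734 to 2.06 CPM in ATRA cells and 8.34 to 12.2 CPM in CTRL cells after co-culture, and to 1.26 to 3.77 CPM in ATRA cells and 3.92 to 4.49 CPM in CTRL cells after restimulation. B cell markers summed to 3.59 to 6.82 CPM in ATRA cells and 1.01 to 1.72 CPM in CTRL cells after co-culture, and to 8.01 to 8.90 CPM in ATRA cells and 0.786 to 2.58 CPM in CTRL cells after restimulation. Erythroid markers summed to at most 0.904 CPM. The part of other cells in the results below was not tested.

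Myc fell 3.18-fold in restimulated ATRA cells, whereas its paralogue Mycn was higher in ATRA cells in both states. Levels below are library-scaled counts (CPM) after TMM scaling within each state, and calls are at an adjusted p under 0.05 by edgeR's quasi-likelihood test with Benjamini-Hochberg adjustment over all genes. After restimulation, Myc had 69.2, 62.7 and 62.7 CPM in ATRA libraries, against 196, 234 and 189 CPM in CTRL libraries. The highest ATRA library was far below the lowest CTRL library. The fold change on the log2 scale was -1.67 ± 0.09 (SE, n = 3 each; adjusted p = 1.5e-08). In bulk RNA, fewer cells of a type and less RNA per cell cannot be told apart, which holds for this and every later result. After co-culture, Myc had 392, 368 and 228 CPM in ATRA libraries, against 221, 268 and 278 CPM in CTRL libraries. ATRA replicates 1 and 2 were above every CTRL library and ATRA replicate 3 lay within the CTRL range, so the groups overlapped. The log2 fold change of 0.37 ± 0.22 (SE) did not pass the test over all 6 libraries (adjusted p = 0.22). It was 0.57 (adjusted p = 0.0058) without ATRA replicate 3 and 0.49 (adjusted p = 3.8e-07) without both libraries that stood apart. The last p-value comes from a fit whose libraries were picked after the values were seen, so it is not read as support. Within the batches that the labels name, the log2 ratio of Myc after co-culture was 0.83, 0.46 and -0.28, and after restimulation it was -1.50, -1.90 and -1.59.

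Mycn, which binds the same sites as Myc and is best known from embryonic tissue and neuroblastoma, was expressed at a lower level. After co-culture it had 17.2, 17.4 and 17.9 CPM in ATRA libraries, against 1.45, 5.91 and 7.64 CPM in CTRL libraries. Every ATRA library was more than 2-fold above the highest CTRL library, and the CTRL libraries were themselves widely spread. The log2 fold change was 1.80 ± 0.52 (SE; adjusted p = 0.039). This call was lost on leaving out any 1 library except CTRL replicate 1, with adjusted p between 0.0082 and 0.10. After restimulation, Mycn had 9.57, 8.48 and 9.59 CPM in ATRA libraries, against 1.80, 2.08 and 1.67 CPM in CTRL libraries. The groups did not overlap and the log2 fold change was 2.32 ± 0.22 (SE; adjusted p = 2.2e-06), a 4.98-fold higher level. Per length, in the deposited TPM of the restimulated cells, Mycn averaged 5.87 ± 0.383 TPM in ATRA cells and 1.08 ± 0.0770 TPM in CTRL cells (SD, n = 3 each). Myc averaged 39.97 ± 2.22 TPM in ATRA cells and 120.1 ± 8.65 TPM in CTRL cells, so Myc remained the more abundant transcript of the pair in both.

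**Figure D1:**
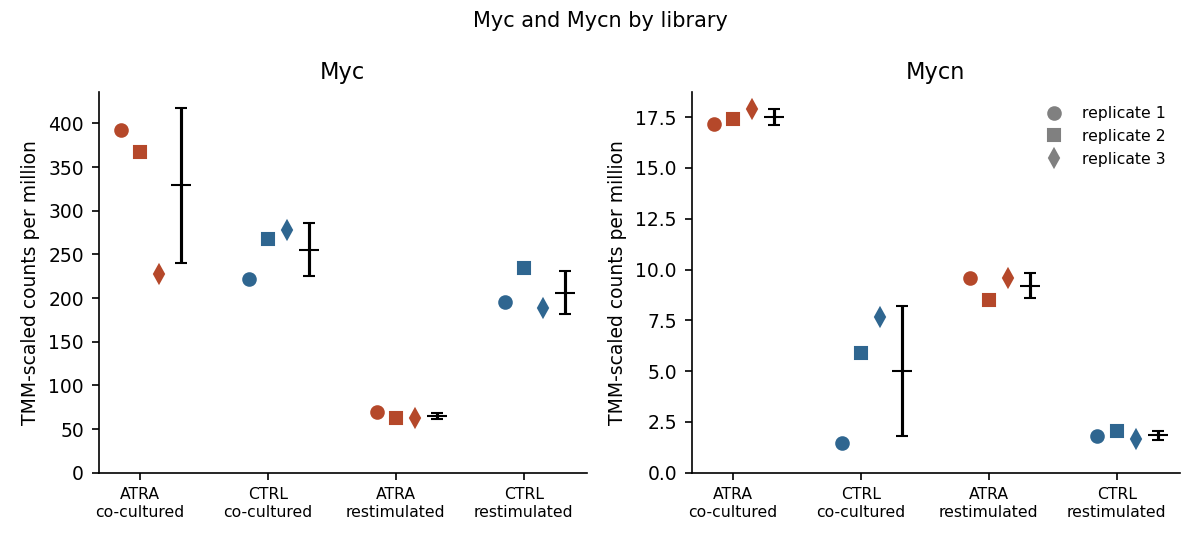
TMM-scaled CPM of Myc (left) and Mycn (right) by group, with 1 point per library shaped by replicate number and the mean ± SD beside it. Restimulated ATRA cells have the lowest Myc, at 62.7 to 69.2 CPM, while their Mycn lies at 8.48 to 9.59 CPM, above the 1.67 to 2.08 CPM of restimulated CTRL cells.

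The canonical E-box bound by Myc and Max reads the same on both strands (CACGTG), and the promoters of 10 members held it. RefSeq promoter windows of 250 bases before to 50 bases after the gene start (GRCm38.p6) were at hand for 34 of the 40 members, without Myc, Npm1, Fbl, Rrp12, Bop1 and Rrs1. The motif was found in 10 of these 34 windows (29.4%), against 2187 of 27025 genes with a window (8.09%). The second share covers genes whether or not they were expressed here, whereas all members passed the filter on low counts. It was not worked out for the genes tested alone. The sites are shown because Myc is known to act through them. Capitals mark the motif, which began 48 to 215 bases before the start of Rrn3 and 60 bases before that of Nop2, and 3 to 41 bases after the start in the others:
Rrn3, chr16:13780474-13780499, plus strand: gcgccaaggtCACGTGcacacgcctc
Rrn3, chr16:13780641-13780666, plus strand: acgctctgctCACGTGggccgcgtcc
Nop2, chr6:125131813-125131838, plus strand: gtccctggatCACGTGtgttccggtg
Pes1, chr11:3963967-3963992, plus strand: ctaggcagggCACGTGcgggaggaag
Utp4, chr8:106893645-106893670, plus strand: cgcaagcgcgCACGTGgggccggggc
Wdr43, chr17:71616222-71616247, plus strand: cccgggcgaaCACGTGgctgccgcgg
Tsr1, chr11:74898094-74898119, plus strand: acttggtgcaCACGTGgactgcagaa
Ltv1, chr10:13193094-13193119, minus strand: cctgtggaccCACGTGtggagctgcc
Grwd1, chr7:45830740-45830765, minus strand: gccggagtcgCACGTGtgaaaccgga
Utp20, chr10:88826765-88826787, minus strand: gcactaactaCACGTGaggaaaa
Mybbp1a, chr11:72441357-72441376, plus strand: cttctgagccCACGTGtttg
Rrn3 was the 1 member with a pair of matches. Its 250 bases upstream of the start, chr16:13780449-13780698 on the plus strand, are shown whole because Rrn3 was also the member of the polymerase I group whose ATRA effect differed between the states:
Rrn3 upstream: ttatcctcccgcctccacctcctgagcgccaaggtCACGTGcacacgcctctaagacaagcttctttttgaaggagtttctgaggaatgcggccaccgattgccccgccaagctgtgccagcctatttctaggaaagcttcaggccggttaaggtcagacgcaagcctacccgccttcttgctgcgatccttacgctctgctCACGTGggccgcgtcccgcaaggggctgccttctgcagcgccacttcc
Of the 10 members with the motif, 0 were called higher and 4 lower after co-culture, and 2 higher and 5 lower after restimulation. Over all genes tested, 18.1% were called higher and 15.5% lower after co-culture, and 31.8% higher and 30.8% lower after restimulation. Of the 24 members whose window lacked these letters, 1 was called higher and 4 lower after co-culture, and 2 higher and 13 lower after restimulation. A match describes the letters only and shows no binding.

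After co-culture, the members sat lower in ATRA cells for the most part, but few passed the test over all 6 libraries. Of 40 members, 10 fell and 1 rose in ATRA cells, against 15.5% and 18.1% of the 12111 genes tested (33.6% in either direction). Those that fell were Rrn3, Ddx21, Nolc1, Gar1, Bysl, Ltv1, Utp4, Utp20, Bop1 and Rrs1, and Mycn rose. The median log2 fold change over the members was -0.48, against 0.01 over all genes tested, and 7 of 40 were above 0. For 21 members every ATRA library was below every CTRL library, where 28.7% of all genes did so, and for 2 every ATRA library was above, where 28.4% did so (57.0% either way). The summed level of the 40 members was 6777, 6518 and 5628 CPM in ATRA libraries, against 6762, 7533 and 7442 CPM in CTRL libraries.

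These counts rested on single libraries. Without CTRL replicate 3, 0 members were called in either direction, and 1613 of 12377 genes tested were called. Without CTRL replicate 2 or ATRA replicate 2, 0 rose and 1 fell, and 1772 of 12363 and 2226 of 12299 genes were called. Over all 6 libraries, 4071 of 12111 genes were called, so calls became fewer among all genes too. Without ATRA replicate 3, 2 rose and 18 fell, where 22.3% and 23.1% of all genes did so (45.4% in all). Without both libraries that stood apart, 5 rose (Myc, Mycn, Ncl, Npm1 and Npm3) and 32 fell, where 32.8% and 32.4% of all genes did so (65.1% in all). CTRL replicate 1, left out there, had the CTRL member sum nearest to those of the ATRA libraries (6762 CPM). The higher counts of that fit are therefore not read as support. Of the 10 members that fell, Bysl lost its call without CTRL replicate 3, and the other 9 lost theirs on leaving out any 1 of ATRA replicate 2, CTRL replicate 2 and CTRL replicate 3, with adjusted p up to 0.15. Nolc1, Rrn3, Ltv1 and Gar1 also lost it without CTRL replicate 1. With the batch as a replicate block, 1 rose and 3 fell (Bysl, Ltv1 and Rrs1), where 2892 of 12111 genes tested were called. The median log2 ratio over the members was -0.05, -0.45 and -1.04 within the 3 batches, and 16, 7 and 5 of 40 members were above 0.

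Among the polymerase I genes, Rrn3 fell, and the catalytic subunit genes were below CTRL without passing the test. Rrn3 encodes the initiation factor that recruits polymerase I to the ribosomal DNA promoter. It had 132, 122 and 86.4 CPM in ATRA libraries, against 151, 177 and 169.5 CPM in CTRL libraries. The groups did not overlap, and the log2 fold change was -0.55 ± 0.17 (SE; adjusted p = 0.048, and 0.070 with the replicate block). Polr1a, the largest subunit, had 148, 130.0 and 67.9 CPM in ATRA libraries, against 156, 208 and 200.4 CPM in CTRL libraries. ATRA replicate 3 was by far the lowest, and the log2 fold change of -0.71 ± 0.29 (SE) had an adjusted p of 0.098. Polr1b, the second largest subunit, had a log2 fold change of -0.70 (adjusted p = 0.11) and its groups overlapped.

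Of 7 nucleolar protein genes, Ddx21 and Nolc1 fell and 5 were not called. Ddx21, an RNA helicase that coordinates ribosomal RNA transcription and processing, had 366, 364 and 347 CPM in ATRA libraries, against 457, 488 and 497 CPM in CTRL libraries. Its libraries lay close together within each group and did not overlap between groups, with a log2 fold change of -0.42 ± 0.09 (SE; adjusted p = 0.014, and 0.064 with the replicate block). Nolc1, a chaperone of snoRNPs, had 85.4, 81.4 and 46.1 CPM in ATRA libraries, against 112, 133 and 135 CPM in CTRL libraries. Its groups did not overlap either, with a log2 fold change of -0.84 ± 0.24 (SE; adjusted p = 0.036, and 0.054 with the block). Npm1, Ncl and Npm3 had fold changes above 0, and none of the 3 passed the test. Npm1, a histone and ribosomal protein chaperone, had 1248, 1243 and 1575 CPM in ATRA libraries, against 1255, 906 and 922 CPM in CTRL libraries. CTRL replicate 1 reached the ATRA level, and the log2 fold change of 0.40 ± 0.18 (SE) had an adjusted p of 0.12. Ncl, or nucleolin, and Npm3 each had a log2 fold change of 0.20 (adjusted p = 0.20 and 0.19). Npm1 has processed pseudogenes, so its counts may hold reads shared with them.

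Of 7 snoRNP genes, Gar1 fell and 6 were not called. Gar1, Dkc1 and Nhp2 are proteins of H/ACA particles, which guide pseudouridylation, while Fbl, Nop56 and Nop58 belong to C/D particles, which guide methylation. Gar1 had 40.8, 37.8 and 25.1 CPM in ATRA libraries, against 51.2, 55.3 and 57.2 CPM in CTRL libraries. All ATRA libraries were below all CTRL libraries, with a log2 fold change of -0.66 ± 0.19 (SE; adjusted p = 0.037, and 0.058 with the block). Dkc1, the pseudouridine synthase, had 180.3, 158 and 64.9 CPM in ATRA libraries, against 199, 259.9 and 231 CPM in CTRL libraries. Its groups did not overlap, but ATRA replicate 3 lay far below the others and the log2 fold change of -0.77 ± 0.36 (SE) had an adjusted p of 0.13. Fbl, the fibrillarin methyltransferase, had 239, 243 and 215 CPM in ATRA libraries, against 213, 239.9 and 238 CPM in CTRL libraries. Here the groups overlapped throughout, with a log2 fold change of 0.01 ± 0.10 (SE; adjusted p = 0.92).

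The small subunit group held the largest decrease of any member after co-culture. Of its 11 genes, Bysl, Ltv1, Utp4 and Utp20 fell and 7 were not called. Bysl, which acts in late pre-40S maturation, had 20.8, 19.6 and 10.8 CPM in ATRA libraries, against 35.0, 47.5 and 52.4 CPM in CTRL libraries. The groups were well apart, with a log2 fold change of -1.39 ± 0.28 (SE; adjusted p = 0.012), a 2.63-fold lower level. Without CTRL replicate 3 its adjusted p was 0.053. Ltv1, a factor of cytoplasmic pre-40S maturation, had 75.2, 69.7 and 46.8 CPM in ATRA libraries, against 97.9, 113 and 106 CPM in CTRL libraries. The groups did not overlap, with a log2 fold change of -0.72 ± 0.19 (SE; adjusted p = 0.026). Utp20 and Utp4, scaffold proteins of the small subunit processome, had log2 fold changes of -0.81 and -0.61 (adjusted p = 0.033 and 0.032; 0.058 and 0.061 with the block). Tsr1, a GTPase-like factor of pre-40S maturation, had 156, 152 and 86.6 CPM in ATRA libraries, against 188, 239 and 224 CPM in CTRL libraries. Although its groups did not overlap, the log2 fold change of -0.72 ± 0.24 (SE) had an adjusted p of 0.053. Nob1, the endonuclease that makes the 3′ end of 18S ribosomal RNA, was the member of this group above 0, at 0.09 (adjusted p = 0.70). The remaining 5, Nop14, Wdr43, Utp15, Noc4l and Rrp12, had log2 fold changes from -0.51 to -0.25 (adjusted p from 0.053 to 0.38).

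Of 10 large subunit genes, Rrs1 and Bop1 fell and 8 were not called, and all 10 log2 fold changes were below 0. Rrs1, which brings the 5S ribosomal RNA particle into the pre-60S subunit, had 33.9, 32.5 and 18.3 CPM in ATRA libraries, against 48.9, 60.7 and 56.7 CPM in CTRL libraries. The groups did not overlap, with a log2 fold change of -0.97 ± 0.24 (SE; adjusted p = 0.024). Bop1, which with Pes1 and Wdr12 forms the PeBoW complex of large subunit assembly, had 73.1, 68.2 and 40.2 CPM in ATRA libraries, against 80.9, 121 and 124 CPM in CTRL libraries. Here too the groups were apart, with a log2 fold change of -0.84 ± 0.27 (SE; adjusted p = 0.0499, and 0.087 with the block). Its partners Pes1 and Wdr12 had log2 fold changes of -0.09 (adjusted p = 0.51) and -0.57 (adjusted p = 0.10), and both pairs of groups overlapped. Grwd1, a chaperone of ribosomal protein L3, had a log2 fold change of -0.99 (adjusted p = 0.080). Nop2, Nop16, Wdr74 and Ppan lay between -0.63 and -0.33, and Noc2l at -0.01 (adjusted p = 0.99).

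**Figure D2:**
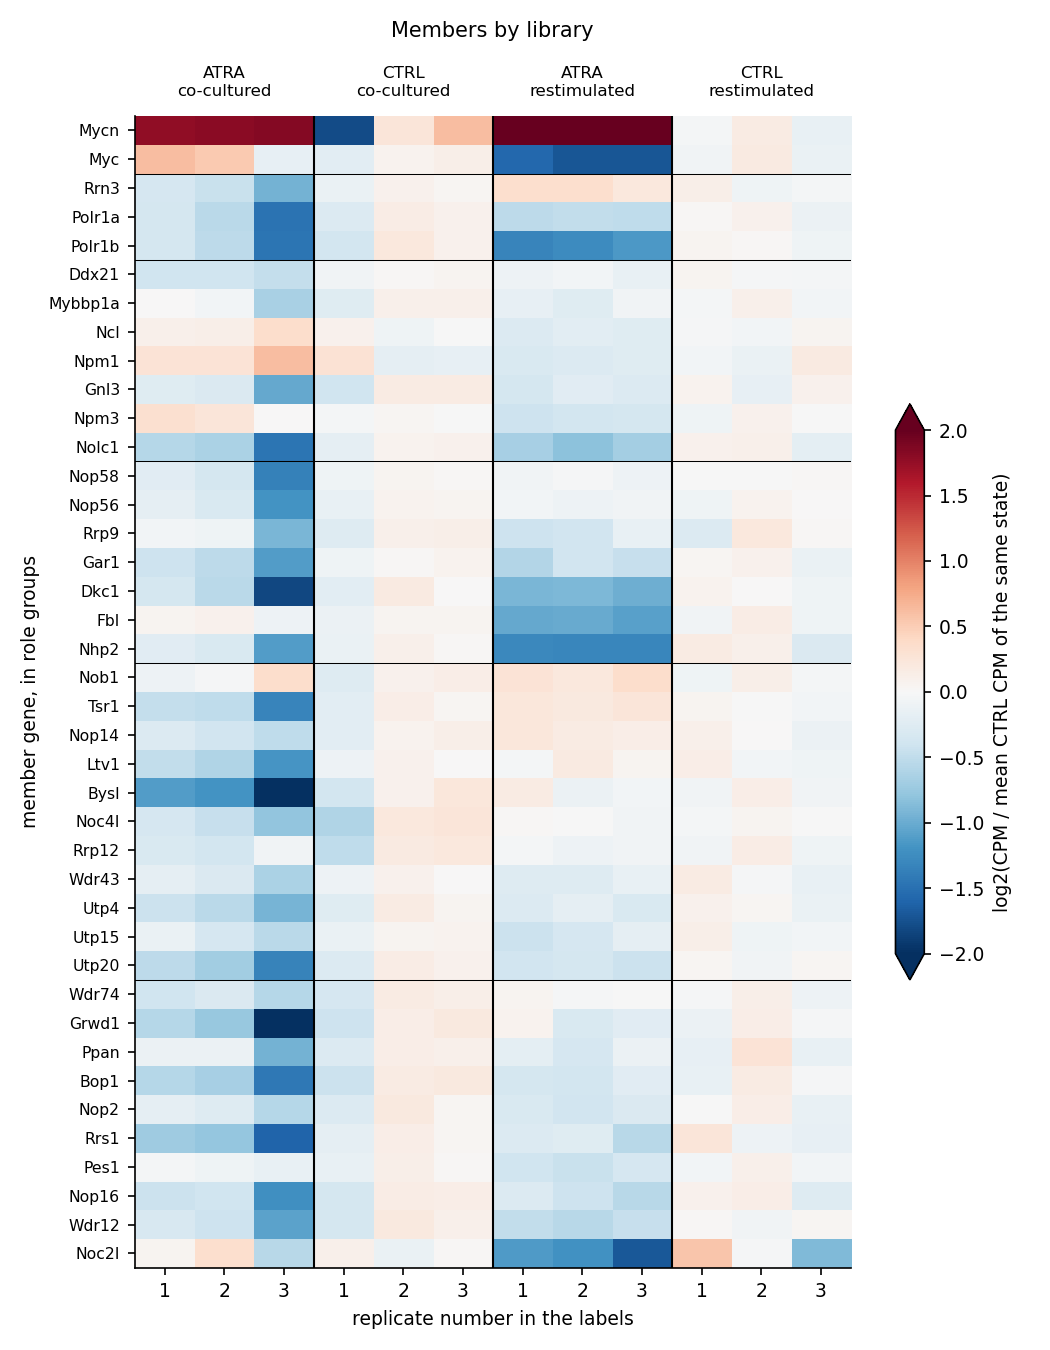
Level of each member (rows, in role groups) in each of the 12 libraries (columns), as log2 of its CPM over the mean CTRL CPM of the same state, with colours ending at -2 and 2. After co-culture the ATRA columns differ among themselves, replicate 3 being lowest for most members, whereas after restimulation the 3 ATRA columns look alike.

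After restimulation, most members were lower in ATRA cells, with a tighter spread between libraries. Of 40 members, 23 fell and 4 rose (Mycn, Rrn3, Nob1 and Tsr1), against 30.8% and 31.8% of the 12783 genes tested (62.6% in either direction). The median log2 fold change over the members was -0.27, against 0.02 over all genes tested, and 8 of 40 were above 0. For 25 members every ATRA library was below every CTRL library, where 33.4% of all genes did so, and for 5 every ATRA library was above, where 35.4% did so (68.8% either way). The summed level of the 40 members was 5949.7, 5990.1 and 5992 CPM in ATRA libraries, against 7328, 7332 and 7175 CPM in CTRL libraries. The median log2 ratio over the members was -0.28, -0.26 and -0.19 within the 3 batches. Leaving out any 1 library gave 20 to 24 members lower and 3 to 4 higher. In these fits between 7247 of 13049 and 8185 of 13048 genes tested were called.

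The 3 polymerase I genes were all called, in opposite directions. Polr1b had 61.4, 64.4 and 69.4 CPM in ATRA libraries, against 159.5, 157 and 145 CPM in CTRL libraries. The highest ATRA library was far below the lowest CTRL library for this gene too, and the log2 fold change was -1.24 ± 0.08 (SE; adjusted p = 4.3e-08). Polr1a had 145, 149 and 147 CPM in ATRA libraries, against 214, 222 and 194 CPM in CTRL libraries. It fell less, by 0.51 ± 0.07 (SE) on the log2 scale (adjusted p = 3.9e-05), without overlap. Rrn3 had 265, 267 and 244 CPM in ATRA libraries, against 229, 199 and 204 CPM in CTRL libraries. It rose by 0.29 ± 0.07 (SE) on the log2 scale (adjusted p = 0.0038), and its groups did not overlap. The deposited TPM gave 0.24 for Rrn3, which did not pass the test there (adjusted p = 0.072).

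Of the 7 nucleolar protein genes, 5 fell and none rose, and in all 7 every ATRA library was below every CTRL library. Nolc1 had 63.6, 57.1 and 63.0 CPM in ATRA libraries, against 107, 108 and 88.1 CPM in CTRL libraries. This was the largest decrease of the group, at -0.72 ± 0.09 on the log2 scale (SE; adjusted p = 3.0e-05). Npm3, a nucleoplasmin family protein, had 98.3, 101 and 103 CPM in ATRA libraries, against 123, 139 and 130.0 CPM in CTRL libraries. The log2 fold change was -0.37 ± 0.07 (SE; adjusted p = 6.2e-04), with a clear gap between the groups. Ncl fell by 0.24, Npm1 by 0.27 and Gnl3, a nucleolar GTPase also called nucleostemin, by 0.28 on the log2 scale (adjusted p = 0.0029, 0.0076 and 0.0086). Ddx21 and Mybbp1a, a Myb-binding nucleolar protein, had log2 fold changes of -0.10 and -0.16 (adjusted p = 0.15 and 0.066).

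The snoRNP group held the members, beside Myc, Noc2l and Polr1b, with the largest decreases after restimulation. Of 7 genes, 4 fell (Dkc1, Fbl, Nhp2 and Gar1) and 3 were not called (Nop56, Nop58 and Rrp9). Fbl had 109, 109.9 and 104 CPM in ATRA libraries, against 211, 244 and 208 CPM in CTRL libraries. All ATRA libraries were far below all CTRL libraries, with a log2 fold change of -1.04 ± 0.08 (SE; adjusted p = 1.9e-07). Dkc1 had 153, 155 and 146 CPM in ATRA libraries, against 303, 288 and 270.3 CPM in CTRL libraries. Its groups were equally far apart, with a log2 fold change of -0.92 ± 0.07 (SE; adjusted p = 1.7e-07). Nhp2 had 40.4, 40.1 and 39.9 CPM in ATRA libraries, against 110.1, 106 and 80.6 CPM in CTRL libraries, and its log2 fold change was -1.30 ± 0.11 (SE; adjusted p = 9.4e-07). All 3 H/ACA proteins among the members fell, Gar1 by 0.47 on the log2 scale (adjusted p = 0.0014). Among the C/D proteins, the scaffold subunits Nop56 and Nop58 had log2 fold changes of -0.07 and -0.06 (adjusted p = 0.34 and 0.37), while the methyltransferase Fbl fell.

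The small subunit group was divided. Of 11 genes, Utp20, Utp15, Utp4 and Wdr43 fell, Tsr1 and Nob1 rose and 5 were not called. Utp20 had 238, 243 and 228 CPM in ATRA libraries, against 318, 293 and 315 CPM in CTRL libraries. Its groups did not overlap, with a log2 fold change of -0.39 ± 0.06 (SE; adjusted p = 2.0e-04). Utp15, Utp4 and Wdr43, which belong to the early t-UTP complex of the processome, fell by 0.31, 0.25 and 0.22 (adjusted p = 0.0087, 0.0092 and 0.034). Wdr43 lost its call without any of 4 of the 6 libraries, with adjusted p up to 0.12. Tsr1 had 257, 251 and 259 CPM in ATRA libraries, against 228, 218 and 211 CPM in CTRL libraries. Its ATRA libraries were all above its CTRL libraries, with a log2 fold change of 0.23 ± 0.06 (SE; adjusted p = 0.0067), and the TPM gave the same 0.23 with an adjusted p of 0.13. Nob1 rose by 0.28 (adjusted p = 0.023; up to 0.094 on leaving out 1 library). Bysl had 45.3, 37.5 and 38.8 CPM in ATRA libraries, against 38.6, 44.2 and 38.5 CPM in CTRL libraries. The groups overlapped and the log2 fold change was 0.00 ± 0.11 (SE; adjusted p = 0.98). Nop14, Ltv1, Noc4l and Rrp12 lay between -0.07 and 0.18 (adjusted p from 0.066 to 0.86).

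Of the 10 large subunit genes, 7 fell and 3 were not called (Wdr74, Grwd1 and Ppan). All 3 genes of the PeBoW complex fell. Wdr12 had 89.1, 84.8 and 90.8 CPM in ATRA libraries, against 127, 119.6 and 129 CPM in CTRL libraries. Its groups were far apart relative to their spread, with a log2 fold change of -0.50 ± 0.07 (SE; adjusted p = 5.1e-05). Pes1 had 108, 104 and 113 CPM in ATRA libraries, against 137, 153 and 138 CPM in CTRL libraries. No library overlapped, and the log2 fold change was -0.39 ± 0.07 (SE; adjusted p = 5.2e-04). Bop1 fell by 0.31 (adjusted p = 0.0083), Nop2, a ribosomal RNA methyltransferase, by 0.33 (adjusted p = 0.0029), Nop16 by 0.41 (adjusted p = 0.011) and Rrs1 by 0.35 (adjusted p = 0.028). Noc2l, the mouse NOC2-like protein, had 2.80, 2.67 and 1.91 CPM in ATRA libraries, against 9.09, 6.05 and 3.33 CPM in CTRL libraries. These low levels spread widely among the CTRL libraries, and the log2 fold change of -1.32 ± 0.35 (SE; adjusted p = 0.0061) has the largest error of the members after restimulation.

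**Figure D3:**
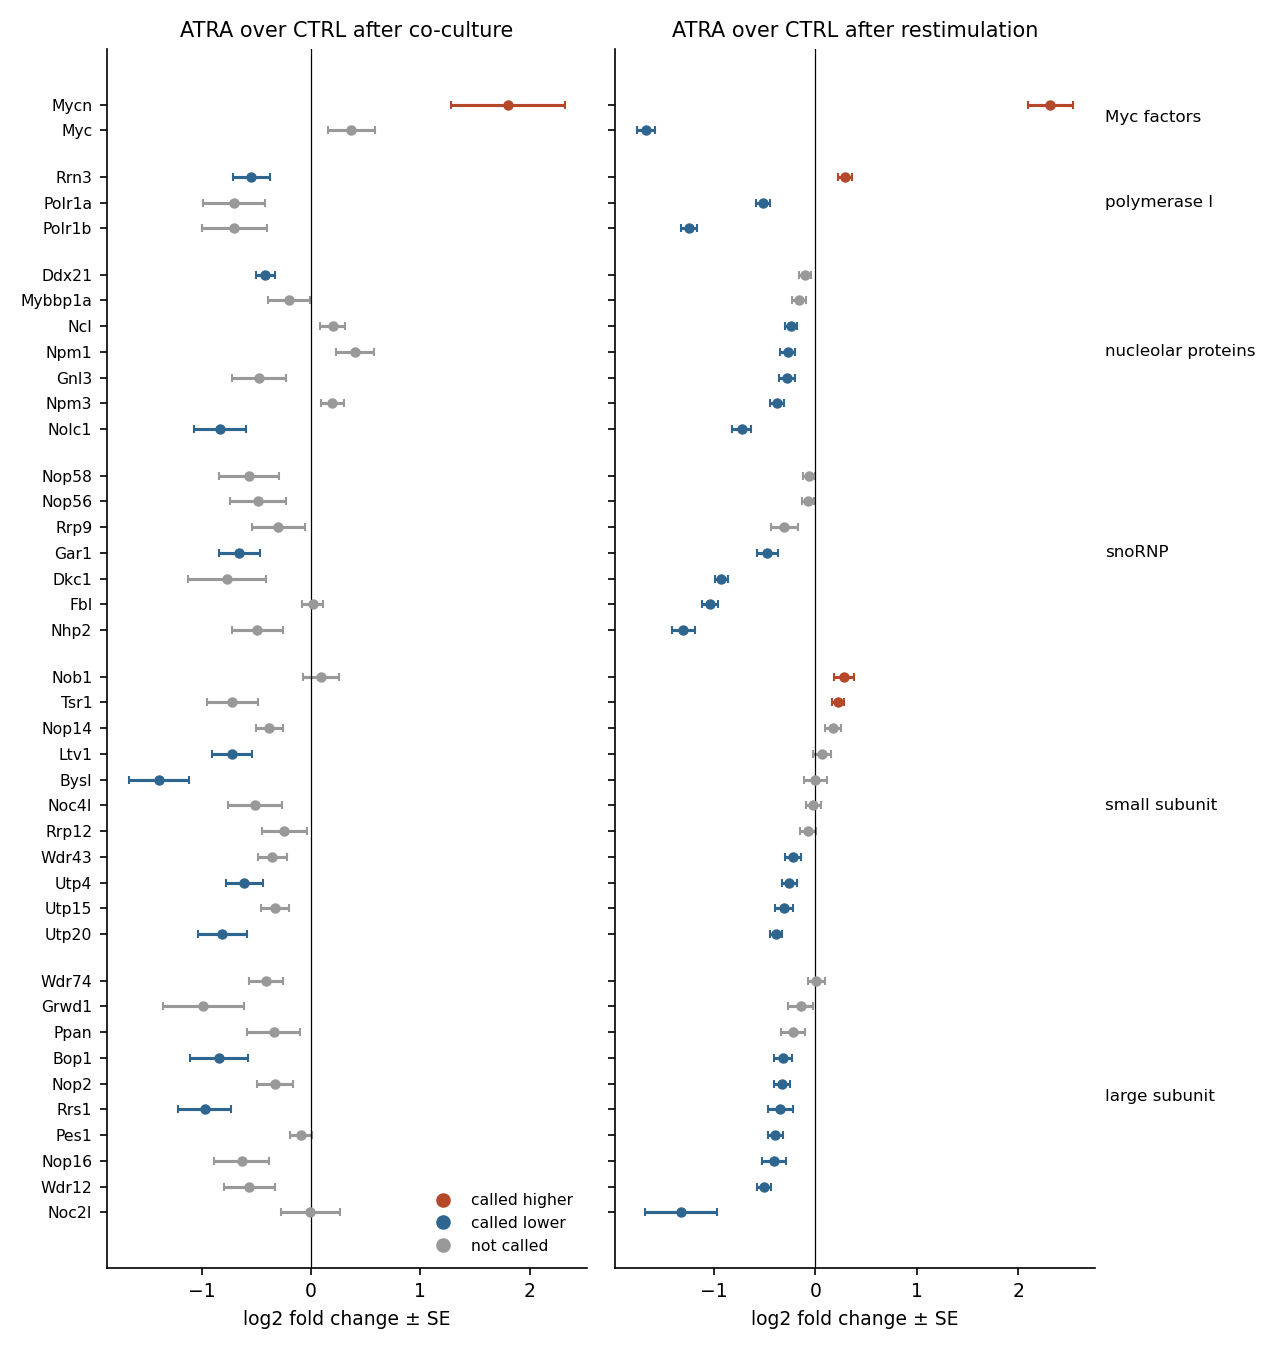
Log2 fold change (ATRA over CTRL) ± SE of each member after co-culture (left) and after restimulation (right), ordered by role group and coloured by call at an adjusted p under 0.05. Errors are wider after co-culture, where 11 members are called, than after restimulation, where 27 are called, and the 2 Myc factors stand at opposite ends on the right.

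The ATRA effect was set against itself between the states with an interaction contrast over all 12 libraries. It differed for 13 members: it was higher after restimulation than after co-culture for Rrn3, Ddx21, Nop14, Bysl, Ltv1 and Tsr1, and lower for Myc, Ncl, Npm1, Npm3, Fbl, Nhp2 and Noc2l. These are 6 and 7 of 40 members, against 23.6% and 25.5% of the 12364 genes tested (49.2% in either direction). Myc had the largest difference, -2.03 ± 0.24 on the log2 scale (SE; adjusted p = 3.1e-05), between -1.67 after restimulation and 0.37 after co-culture. In the same direction, Noc2l differed by -1.32 ± 0.48 (SE; adjusted p = 0.039), Fbl by -1.05 ± 0.12 (SE; adjusted p = 2.8e-05) and Npm3 by -0.57 ± 0.12 (SE; adjusted p = 0.0022), with Nhp2 (-0.81) and Npm1 (-0.68) between these. For Myc, Ncl, Npm1 and Npm3 the fold change was below 0 after restimulation and above 0 after co-culture, but after co-culture none of the 4 passed the test over all 6 libraries. In the opposite direction, Bysl differed by 1.40 ± 0.30 (SE; adjusted p = 0.0022), Tsr1 by 0.95 ± 0.24 (SE; adjusted p = 0.0062) and Rrn3 by 0.84 ± 0.18 (SE; adjusted p = 0.0026). Rrn3 was the member called in opposite directions, higher in ATRA cells after restimulation and lower after co-culture, where its call was lost with the block, under upper quartile scaling (adjusted p = 0.073) and with library totals (adjusted p = 0.070). All 11 small subunit genes had a difference above 0, where 5827 of the 12364 genes tested did. Of these 11, 4 were called higher, where 23.6% of all genes were. Over the 40 members the median difference was 0.19, and it was 0.01 without ATRA replicate 3 of the co-culture. The difference for Mycn was 0.51 ± 0.59 (SE; adjusted p = 0.50). Noc2l lost its call on leaving out any of 10 of the 12 libraries, Nhp2 (adjusted p = 0.025) on leaving out any of 7, and Ddx21 (adjusted p = 0.021) with the replicate block (adjusted p = 0.083). Without both libraries that stood apart, 18 members were called higher and 10 lower, where 28.9% and 31.0% of all genes were (59.9% in all).

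**Figure D4:**
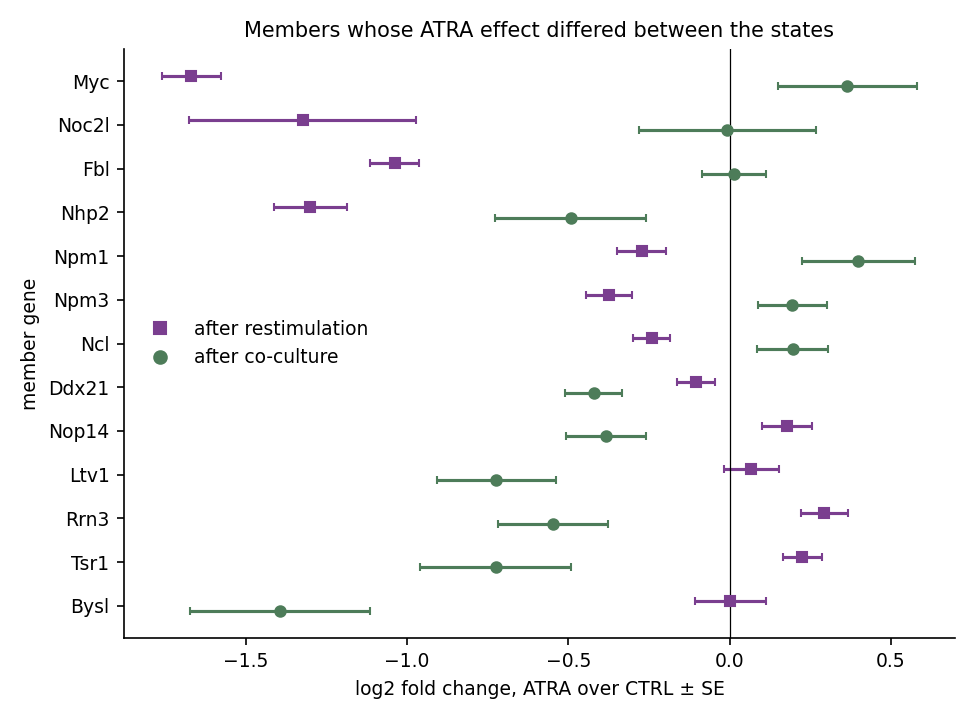
Log2 fold change (ATRA over CTRL) ± SE after restimulation (squares) and after co-culture (circles) for the 13 members whose ATRA effect differed between the states, sorted by the difference. Myc lies at the top with -1.67 after restimulation and 0.37 after co-culture, and Bysl at the bottom with 0.00 and -1.39.

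With restimulation, 19 members were called in ATRA cells and 6 in CTRL cells, and the difference between these counts was not tested. In ATRA cells, restimulated over co-cultured, 10 members rose and 9 fell, against 29.8% and 31.5% of the 12364 genes tested (61.3% in either direction). Myc had the largest decrease, -2.44 ± 0.18 on the log2 scale (SE; adjusted p = 4.1e-07), and Fbl fell by 1.21 (adjusted p = 4.1e-07). Bysl and Rrn3 rose by 1.14 and 1.09 (adjusted p = 5.9e-04 and 2.0e-05). In CTRL cells, 1 member rose (Utp15) and 5 fell (Mycn, Ddx21, Nop14, Nob1 and Wdr74), against 15.9% and 16.6% of genes (32.5% in either direction). Myc in CTRL cells had a log2 fold change of -0.41 ± 0.17 (SE; adjusted p = 0.083). Each state has its own batches and its own table, so the batch set and the state cannot be told apart in these values.

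Levels between genes can be set side by side only per length, in the TPM of the restimulated cells. Npm1 was the most abundant member, at 788 ± 7.61 TPM in ATRA cells and 966 ± 76.0 TPM in CTRL cells (SD, n = 3 each). Nop56, Wdr43, Nop58, Ncl and Dkc1 came next in both groups, in differing order. Their means ran from 205 TPM (Dkc1) to 425 TPM (Nop56) in ATRA cells and from 352 TPM (Nop58) to 473 TPM (Nop56) in CTRL cells. Noc2l was at the bottom in ATRA cells, at 1.22 ± 0.285 TPM, against 3.14 ± 1.69 TPM in CTRL cells.

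Further genes of the same pathway, from lists that do not include the members, were read from the same fits. After co-culture, 14 of 32 small subunit processome genes fell and 0 rose, and 14 of 39 large subunit assembly genes fell and 1 rose, against 15.5% and 18.1% of all genes. Named by the smallest adjusted p, these were Utp6 (-0.57), Utp25 (-0.78) and Heatr1 (-0.86) for the small subunit. For the large subunit they were Noc3l (-0.66), Ddx10 (-0.49) and Rpf1 (-0.69), all log2 fold changes. Of 13 nuclear exosome genes, whose complex trims ribosomal RNA ends, 6 fell and 0 rose, with C1d at -0.76, Exosc3 at -0.59 and Mtrex at -0.53 (adjusted p = 0.055 for Mtrex with the replicate block). The polymerase I machinery outside the members gave 1 lower (Ubtf, -0.36; adjusted p = 0.082 with the block) and 0 higher of 11. Of 14 snoRNP assembly and modification genes, 2 fell (Shq1, -1.13, and Ruvbl1, -0.52) and Nufip1 rose by 0.79. With the block, Ruvbl1 and Nufip1 had adjusted p of 0.055 and 0.056.

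After restimulation, 17 of 32 small subunit processome genes fell and 4 rose, led by Rcl1 (-1.12), Nat10 (-0.67) and Heatr1 (-0.59), against 30.8% and 31.8% of all genes. Of 39 large subunit assembly genes, 15 fell and 7 rose, with Ftsj3 at -0.47, Ddx31 at -0.71 and Zfp622, a late pre-60S factor, at 0.69. Of 14 snoRNP assembly and modification genes, 9 fell and 0 rose. Naf1, an assembly factor of H/ACA particles, had 18.3 ± 2.21 CPM in ATRA cells and 51.8 ± 7.58 CPM in CTRL cells (SD, n = 3 each), a log2 fold change of -1.50 (adjusted p = 1.1e-06). Ruvbl2 and Trmt112 fell by 0.59 and 0.67. Of 13 exosome genes, 8 fell and 2 rose. Exosc8 had 66.5 ± 1.77 CPM in ATRA cells and 192 ± 0.760 CPM in CTRL cells (SD, n = 3 each), a log2 fold change of -1.53 (adjusted p = 1.9e-09), and Exosc2 and Exosc7 fell by 0.96 and 0.76. Of 10 polymerase I machinery genes, Ubtf (-0.27) and Polr1e (-0.37) fell and Polr1c (0.59) rose, although the TPM gave 0.00 for Ubtf.

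Cytosolic ribosomal proteins, the structural components of the ribosome, lay on the other side of CTRL from most assembly factors. After co-culture 19 of 79 rose and 0 fell in ATRA cells, with a median log2 fold change of 0.46, against 18.1% and 15.5% of all genes. Their summed level was 93063, 95338 and 126145 CPM in ATRA libraries, against 90286, 67254 and 69756 CPM in CTRL libraries. ATRA replicate 3 and CTRL replicate 1, the libraries that stood apart, had the highest sums of their groups, and the sums of the first batch lay close together. After restimulation 32 of 79 rose and 3 fell, with a median of 0.17, against 31.8% and 30.8% of all genes. Rpl12 stood out in both, at 287 ± 63.3 CPM in ATRA cells and 88.9 ± 13.5 CPM in CTRL cells after co-culture (SD, n = 3 each), a log2 fold change of 1.69 (adjusted p = 0.0020). After restimulation Rpl12 had a log2 fold change of 1.41 (adjusted p = 1.2e-06). Rpl36 and Rps19 rose by 0.86 and 0.78 after co-culture, and Rps3 rose by 0.34 after restimulation. Ribosomal protein genes have many processed pseudogenes, so their counts may hold reads shared with these.

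**Figure D5:**
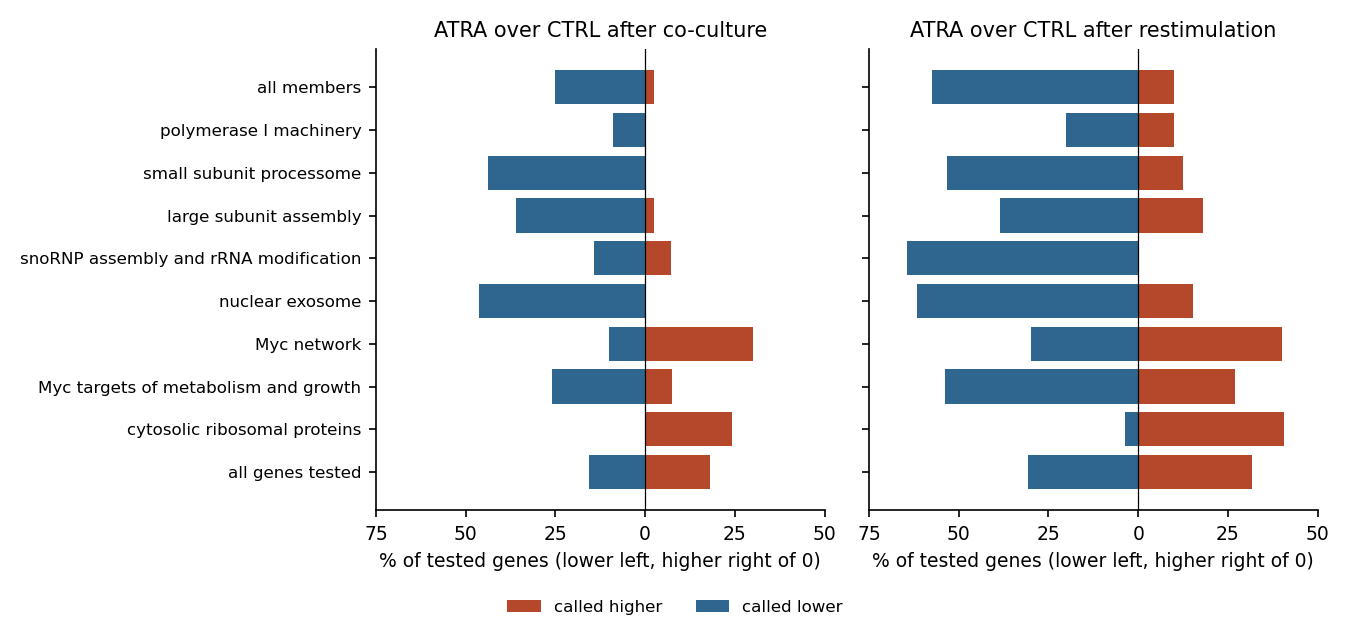
Share of the tested genes of each list called lower (left of 0) and higher (right of 0) in ATRA cells after co-culture (left panel) and after restimulation (right panel), with all genes tested at the bottom. The assembly lists and the members extend mainly to the left and the cytosolic ribosomal proteins to the right, with 32 of 79 higher and 3 lower after restimulation.

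Some partners and antagonists of Myc were called in ATRA cells, in a share near that of all genes. Mxi1, Mxd1, Mxd3, Mxd4 and Mnt bind Max in competition with Myc and repress, and Fbxw7 is the ubiquitin ligase subunit that marks the Myc protein for degradation. After co-culture, 3 of 10 network genes rose and 1 fell, against 18.1% and 15.5% of all genes. Mxi1 had 139 ± 23.4 CPM in ATRA cells and 33.4 ± 1.68 CPM in CTRL cells (SD, n = 3 each), a log2 fold change of 2.05 (adjusted p = 5.3e-04). Mnt rose by 0.56 (adjusted p = 0.053 with the replicate block) and Mxd1, which ranked after the named genes, by 1.78. Fbxw7 had 32.6 ± 2.88 CPM in ATRA cells and 70.7 ± 9.68 CPM in CTRL cells, a log2 fold change of -1.12 (adjusted p = 0.0026). After restimulation, 4 of 10 rose and 3 fell, against 31.8% and 30.8% of all genes, and Fbxw7 was called in the opposite direction. It had 104 ± 6.79 CPM in ATRA cells and 44.4 ± 6.49 CPM in CTRL cells, a log2 fold change of 1.23 (adjusted p = 9.1e-07). Its ATRA effect differed between the states by 2.34 ± 0.18 (SE; adjusted p = 1.2e-06). Mlx rose by 1.04, Mxd1 by 2.58 and Mxi1 by 0.93, whereas Mxd3 fell by 2.51, Mxd4 by 0.98 and Mnt by 0.53. Max, the shared partner, had log2 fold changes of 0.04 after co-culture (adjusted p = 0.85) and -0.41 after restimulation (adjusted p = 0.069). Mga and Mlxip passed the test in neither state.

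Among genes of metabolism and growth that are known Myc targets, 7 of 27 fell and 2 rose after co-culture, against 15.5% and 18.1% of all genes. After restimulation 14 of 26 fell and 7 rose, against 30.8% and 31.8%. Tfrc, the transferrin receptor, had 249 ± 49.7 CPM in ATRA cells and 832 ± 66.0 CPM in CTRL cells after co-culture (SD, n = 3 each), a log2 fold change of -1.74 (adjusted p = 0.0013). Its ATRA effect differed by 1.76 between the states, with 629 ± 14.8 CPM in ATRA cells and 623 ± 49.3 CPM in CTRL cells after restimulation. Eif4e, the cap-binding translation initiation factor, fell by 0.45 and Tert, the telomerase catalytic subunit, rose by 0.99 after co-culture. After restimulation, the purine synthesis genes Paics and Gart fell by 1.55 and 1.25 on the log2 scale (adjusted p = 1.6e-09 and 5.7e-09). Paics had 115 ± 5.42 CPM in ATRA cells and 338 ± 6.09 CPM in CTRL cells. Slc3a2, the heavy chain of the amino acid transporter CD98, moved the other way, with 834 ± 25.8 CPM in ATRA cells and 176 ± 5.97 CPM in CTRL cells, a log2 fold change of 2.25 (adjusted p = 8.0e-11).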

How the data were processed

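Libraries were made with a stranded total RNA kit, per the labels' protocols. The submitters' processing notes name mm39 and, with no role for each, STAR 2.7.11b, DESeq2 1.42.1, cutadapt 5.0 and Salmon 1.10.3. How reads were assigned to genes and whether strand was used is not stated there. The authors deposited 1 table of whole-number counts per gene for each state and 1 table of TPM for the restimulated cells. The TPM headings give the treatment but not which library. Symbols repeated in the restimulation table (32) were reduced to the row with the most counts. The co-culture table holds no row summing to under 10 counts. Counts were tested with edgeR 4.0.16 in R 4.3.3 (TMM scaling, filterByExpr, robust quasi-likelihood test, Benjamini-Hochberg over all genes), 1 fit per state and 1 over all 12 libraries. The procedure was tested on simulated data in which 200 genes were changed. After co-culture it recovered 0% of 1.5-fold and 38.9% of 2-fold changes, and after restimulation 48.0% and 79.5%. For the difference between the states it recovered 35.7% of 2-fold changes. The 1.5-fold run after co-culture recovered none of its changes, so its 0% of false calls says nothing. In the other runs false calls made up 7.23% to 8.74% of the calls, more than the adjusted p threshold of 0.05 aims at. The simulation drew its noise separately for each gene and changed 200 genes, whereas the data gave 4071 called genes after co-culture and 7998 after restimulation. The shares recovered therefore do not carry over to these fits. A member not called may still differ, above all after co-culture, where errors were wider. limma 3.58.1 on log2(TPM + 1) with a mean TPM of at least 0.5, and DESeq2 1.42.0, were alternatives. In each role group, values per library are given for the 2 members with the smallest adjusted p in each ATRA comparison and the 1 in the difference; lists name up to 3 called genes, and other genes (Mxd1, Mxd4, Max, Mga and Mlxip) and the library values of Npm1 and Tsr1 after co-culture and Nhp2 after restimulation were chosen after values were seen; 1 gene that the rule names is not reported here. The members and lists were chosen with earlier results of these data known. Same-numbered libraries of a state share a batch in the labels, which pairs them; their deviations from the group means correlated at 0.10, -0.05 and 0.06 after co-culture and at -0.03, -0.11 and 0.06 after restimulation. No 2 libraries of a group agreed within sampling noise (smallest chi-square per degree of freedom 3.86). Within-batch ratios had 0.5 added to counts.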

Additional observations from a re-analysis of the deposited data

Results flagged for a closer look

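The ATRA effect on 13 of 40 members differed between the states by the interaction test, where 49.2% of the 12364 genes tested did so. The test was edgeR's quasi-likelihood test with Benjamini-Hochberg adjustment over all genes, on 12 libraries. Differences are given here as restimulated minus co-cultured on the log2 scale. The ATRA effect was lower after restimulation for Myc (-2.03), Noc2l (-1.32), Fbl (-1.05), Nhp2 (-0.81), Npm1 (-0.68), Npm3 (-0.57) and Ncl (-0.44). It was higher after restimulation for Bysl (1.40), Tsr1 (0.95), Rrn3 (0.84), Ltv1 (0.79), Nop14 (0.56) and Ddx21 (0.31).

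The same test was met by further pathway genes named above. In the Myc network, the differences were 2.34 for Fbxw7, 1.31 for Mlx, -1.13 for Mxi1, -1.099 for Mnt, -2.15 for Mxd3 and -1.92 for Mxd4. Among Myc targets of metabolism and growth they were 2.27 for Slc3a2, 1.76 for Tfrc, 0.79 for Eif4e, -0.68 for Tert and -1.52 for Paics. For the ribosomal protein gene Rpl36 the difference was -0.76. For the assembly factors Noc3l, Utp6, Utp25 and Ddx31 they were 0.71, 0.33, 0.46 and -0.45. For the exosome genes Exosc3 and Exosc8 they were 0.69 and -2.23, and for Nufip1, Naf1, Ruvbl2 and Trmt112 of snoRNP assembly and modification they were -1.001, -1.43, -0.81 and -0.89. With the replicate block, Ddx21 (adjusted p = 0.083), Tert (0.053), Ddx31 (0.066), Utp25 (0.071) and Utp6 (0.082) no longer passed. With library totals, Noc2l (adjusted p = 0.059), Nhp2 (0.076), Tert (0.056), Ddx31 (0.13) and Utp25 (0.058) no longer passed.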

How the results depend on the processing

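The count of members after co-culture was the result that moved most, between 0 and 18 lower and 0 and 2 higher on leaving out 1 library, and 32 lower and 5 higher without ATRA replicate 3 and CTRL replicate 1, an alternative added after seeing the data. Library totals as the scaling gave 0 higher and 5 lower, where 3840 of 12111 genes tested were called. The replicate block gave 3 lower, where 2892 of 12111 were called. After restimulation the counts were 20 to 24 lower and 3 to 4 higher on leaving out 1 library, and 2 higher with limma on TPM at either pseudocount or without a filter. For the difference between the states they were 5 to 11 higher and 5 to 10 lower on leaving out 1 library, and 18 higher without both libraries. Restimulated over co-cultured, CTRL cells gave 0 to 1 higher and 2 to 7 lower on leaving out 1 library, and 2 lower with library totals; ATRA cells gave 8 to 13 higher and 7 to 15 lower. Ubtf after restimulation reversed under TPM, to a log2 fold change of 0.00437 with a pseudocount of 1, 0.00444 with 0.1 and 0.00437 without a filter. In these cases the cause was not tested. The replicate block ended the calls of 7 members after co-culture and of Ddx21 in the difference. It also ended those of Mnt, Mtrex, Ubtf, Ruvbl1 and Nufip1 after co-culture and of Ddx31, Tert, Utp25 and Utp6 in the difference, with values given above, and after restimulation it left 23 members lower and 4 higher. Under upper quartile scaling Bop1, Rrn3, Gar1 and Ubtf lost their calls after co-culture (adjusted p = 0.065, 0.073, 0.054 and 0.068). Under the same scaling Wdr43 (adjusted p = 0.11) and Rrs1 (adjusted p = 0.061) lost their calls after restimulation, and under limma on TPM with a pseudocount of 1 so did Bop1, Rrs1 and Noc2l (adjusted p = 0.090, 0.23 and 0.062). Under limma on TPM without a filter, Polr1a, Wdr43, Utp4 and Nop16 lost theirs as well (adjusted p = 0.0502, 0.055, 0.058 and 0.063). So did the list genes Polr1c, Polr1e and Heatr1 (adjusted p = 0.072, 0.056 and 0.055). Library totals also moved the median of all genes to 0.13, from -0.03 with TMM, on the log2 scale for restimulated over co-cultured ATRA cells.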
